A study of Mus musculus with 4 samples.

Results

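Chemokines that attract lymphocytes, and the receptors that read them, were followed through muscle injury in a mouse model of heterotopic ossification (HO). The set holds 10 genes of the 32285 in the deposited tables, chosen by symbol: the ligands *Cxcl9*, *Cxcl10*, *Cxcl12*, *Cxcl13*, *Cxcl16*, *Ccl5*, *Ccl19* and *Ccl20*, and the receptors *Cxcr3* and *Cxcr4*. All mice were *Nse-Bmp4* transgenics on a C57BL/6 background, 6 to 8 weeks old, in which the rat *Nse* promoter drives *Bmp4*. The Uninjured group carries the transgene too, and no library here came from mice without it. Tibial muscle was taken without injury or at 1, 3 or 7 days after injury (dpi) with cardiotoxin, a snake venom toxin that destroys myofibres, and digested with collagenase. Each of the 4 libraries pooled 3 muscles, so a group is 1 library of droplet single-cell RNA sequencing (scRNA-seq) without a replicate. No test between time points could be made, and each interval below covers counting error only.

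Chemokines are small secreted proteins that guide cells carrying the matching receptor. CXCL9 and CXCL10 are induced by interferon and act on CXCR3 of activated T and NK cells, while CXCL12 acts on CXCR4 and holds lymphocytes and progenitors in stromal niches. CXCL13 and CCL19 organise B cells and T cells in lymphoid tissue through CXCR5 and CCR7, CXCL16 acts on CXCR6 and CCL20 on CCR6, and CCL5 draws effector T cells and NK cells.

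The libraries held 12031, 11722, 15160 and 23752 cells in the order Uninjured, 1, 3 and 7 dpi, with medians of 8629, 5561, 4214 and 3083 unique molecular identifiers (UMIs, each standing for 1 captured transcript) per cell. Pairs of libraries shared 30 to 95 cell barcodes. After limits on depth and mitochondrial share, and removal of 11.4 to 15.4% of cells as candidate doublets that carried markers of different lineages, 9893, 9061, 11535 and 18783 cells were kept. Kept cells were assigned to classes by lists of 8 marker genes, none of which was a member of the set. The cells in a class made up 97.1, 92.3, 83.4 and 76.5% of kept cells. Of the 45 combinations of class and library with at least 50 cells, 42 had their own marker list as the highest. The 3 others were neutrophils before 7 dpi, in which the granulocyte progenitor list stood higher. Levels are CPM, the number of UMIs of a gene in every 1000000 UMIs of the pooled cells of a class.

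All 10 genes were detected in every library, with 56.5% of the *Cxcl9* UMIs of the 1 dpi library and 55.8% at 3 dpi in kept cells, and up to 88.1% for *Ccl5* at 1 dpi. *Ccl20* was the exception, with 6.74, 20, 18.2 and 29.1% of its UMIs kept. *Ccl19* has a second row of the same symbol on an unplaced scaffold, which held 0 UMIs in every library. Whether reads of the 2 copies were split or dropped was not tested, so its level is uncertain to that degree.

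*Cxcl9* and *Cxcl10* lie near each other on the minus strand of chromosome 5, at chr5:92321347-92328079 and chr5:92346638-92348889 (GRCm38, GENCODE M21). *Cxcl13* lies on the plus strand of the same chromosome at chr5:95956951-95961068. The 250 bases before their RefSeq start sites (GRCm38.p6) are shown because *Cxcl9* and *Cxcl10* are known interferon targets. *Cxcl13* is shown beside them as the third member on that chromosome. Capitals mark matches to the interferon element GAAANNGAA and to the NF-kB element GGGANNTTC on either strand. The windows were chr5:92328080-92328329 and chr5:92348890-92349139, both read on the minus strand, and chr5:95956689-95956938 on the plus strand.
Cxcl9: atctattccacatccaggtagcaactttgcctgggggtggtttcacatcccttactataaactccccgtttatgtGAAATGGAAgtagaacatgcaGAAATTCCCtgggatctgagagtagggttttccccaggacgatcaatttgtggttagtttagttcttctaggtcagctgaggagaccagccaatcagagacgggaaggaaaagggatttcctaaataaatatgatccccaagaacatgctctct
Cxcl10: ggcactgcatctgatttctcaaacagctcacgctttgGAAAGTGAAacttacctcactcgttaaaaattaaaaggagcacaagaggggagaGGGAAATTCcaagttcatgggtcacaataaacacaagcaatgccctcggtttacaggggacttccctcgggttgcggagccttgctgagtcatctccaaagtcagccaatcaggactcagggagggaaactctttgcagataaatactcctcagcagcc
Cxcl13: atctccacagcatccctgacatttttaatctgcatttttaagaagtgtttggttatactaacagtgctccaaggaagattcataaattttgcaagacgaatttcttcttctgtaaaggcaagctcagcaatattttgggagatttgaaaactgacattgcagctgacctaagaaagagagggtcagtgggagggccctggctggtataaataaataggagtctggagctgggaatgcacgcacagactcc
The interferon element matched 175 bases before the *Cxcl9* start and 213 bases before the *Cxcl10* start, and the NF-kB element 154 and 159 bases before them. No match stood in the *Cxcl13* window. Windows were found for 8 members, all but *Cxcl16* and *Ccl5*, and *Ccl19* alone of the remaining members had a match, to the interferon element 208 bases before its RefSeq start. The *Ccl19* window, chr4:42756366-42756615, overlaps the GENCODE M21 gene, chr4:42754525-42756577. That match lies inside the GENCODE gene, so it is upstream of the RefSeq start only. Of all 32851 promoter windows of 300 bases, 8.56% held the interferon element, 3.94% the NF-kB element and 0.387% both. The element TTCNNNGAA, another element of interferon target promoters, was in 8.30% of the windows and in none of the members'. These matches are letters in a window and carry no measure of binding.

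The ligands came from stromal, myeloid or lymphoid cells, and the receptor levels were highest in immune classes (the heat map of the 10 genes by class). *Cxcl12*, *Cxcl13*, *Ccl19* and *Cxcl9* were stromal, with 84.2 to 99.8% of their kept UMIs in mesenchymal cells in each library. The mesenchymal class made up 82.5, 37.4, 48.0 and 60.2% of kept cells. *Ccl5* was lymphoid, *Cxcl16* was shared by myeloid and mesenchymal cells, and the class that held most *Cxcl10* UMIs differed by library. Mesenchymal cells held 78.5% of *Cxcl10* UMIs in the Uninjured library and 25.5% at 1 dpi, where monocytes and macrophages held 50.1%.

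**Figure D1:**
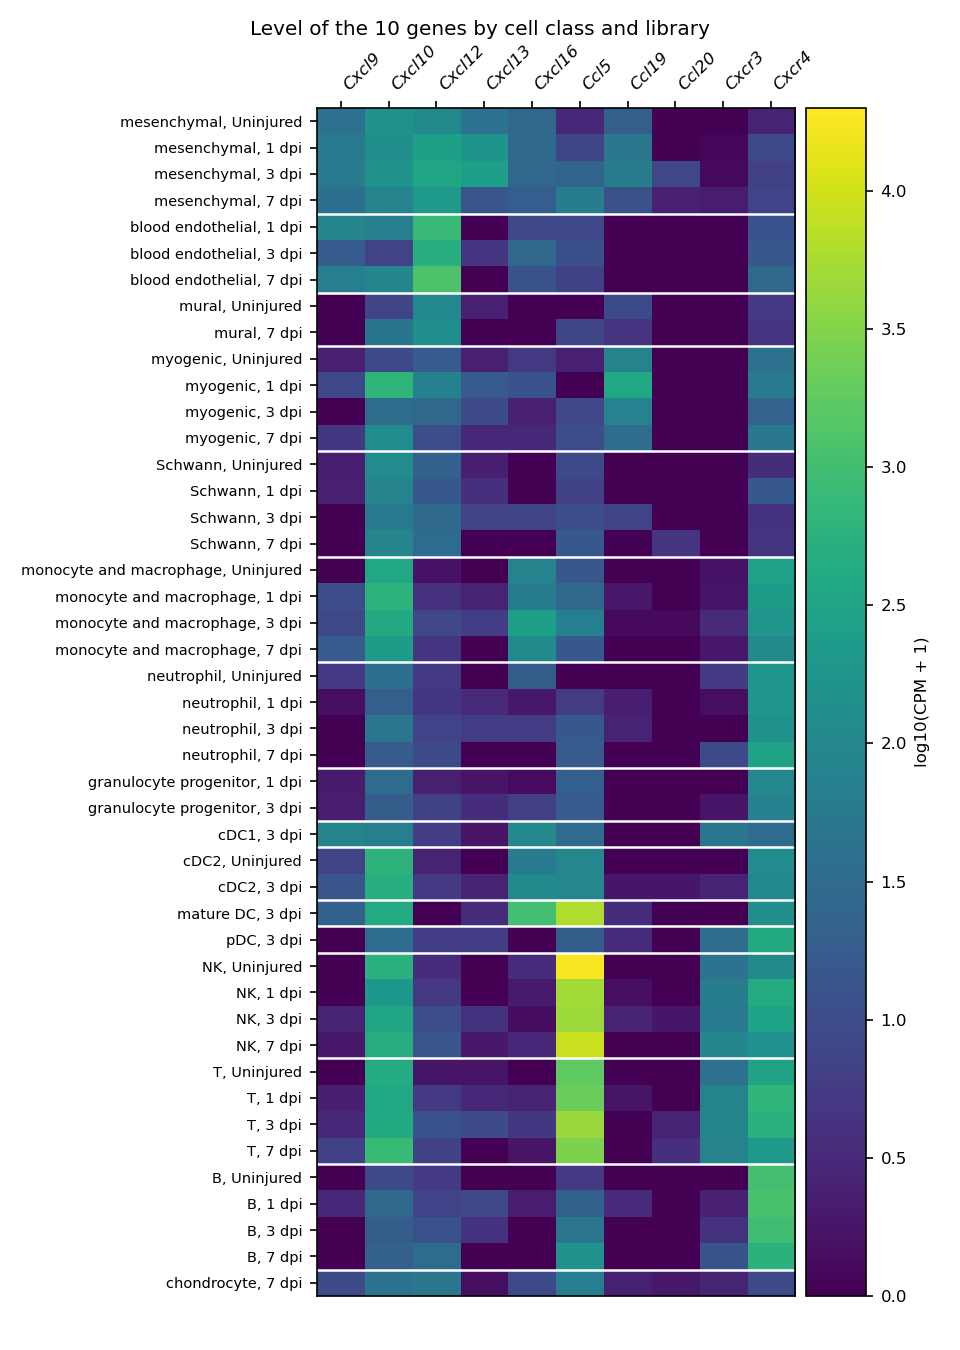
Level of each of the 10 genes (columns) in each class and library with at least 50 cells (rows), as log10(CPM + 1) by colour. Stromal rows are bright for Cxcl12, lymphoid rows for Ccl5 and B cell rows for Cxcr4.

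*Cxcl12* (chr6:117168535-117181367, plus strand), the ligand that retains CXCR4-bearing cells, was measured at 114.2 CPM (95% interval 111.8 to 116.6) in Uninjured mesenchymal cells, 268.9 (262.9 to 275.0) at 1 dpi, 348.9 (343.1 to 354.7) at 3 dpi and 205.8 (202.0 to 209.6) at 7 dpi. All 3 injured libraries stood above the Uninjured library, with 3 dpi the highest. The ratio to Uninjured was 2.36 (2.28 to 2.43) at 1 dpi, 3.06 (2.97 to 3.14) at 3 dpi and 1.80 (1.75 to 1.85) at 7 dpi. The share of mesenchymal cells with a *Cxcl12* UMI was 49.4, 62.1, 56.9 and 37.1%, and after each cell was thinned to 1000 UMIs it was 10.3, 18.5, 22.8 and 15.6%. The thinned share in T cells, which should lack it, was 0 to 1.55%, with median depths of 1957 to 4003 UMIs in T cells and 3068 to 9010 in mesenchymal cells before thinning. The few blood endothelial cells (50 to 102 per injured library) held higher levels, at 799.6, 500.5 and 1236 CPM at 1, 3 and 7 dpi. In Uninjured tissue mural cells, at 99.8 CPM (78.2 to 125.4), had an interval that overlapped the mesenchymal one. At 7 dpi chondrocytes, a class that reached 1147 cells in that library and under 50 in the rest, held 49.2 CPM (42.9 to 56.2), below the mesenchymal level.

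*Cxcl13*, the B cell attractant, had a wider swing in mesenchymal cells than *Cxcl9*, *Cxcl12* or *Ccl19*. It was measured at 42.0 CPM (40.6 to 43.5) in Uninjured, 169.5 (164.7 to 174.4) at 1 dpi, 269.3 (264.2 to 274.5) at 3 dpi and 13.1 (12.1 to 14.1) at 7 dpi. It was thus 4.03 (3.86 to 4.22) and 6.41 (6.16 to 6.67) times the Uninjured level at 1 and 3 dpi, and at 7 dpi 3.22 (2.97 to 3.5) times below it and 20.6 (19.1 to 22.3) times below 3 dpi. Few cells carried it. The share of mesenchymal cells with a UMI was 6.35, 9.81, 14 and 1.61%, against 2.24, 4.71, 7.54 and 0.778% after thinning and at most 0.774% of thinned T cells. A single cell held up to 589 of its UMIs at 3 dpi, and the 10 cells with the most held 18.2, 31, 24.6 and 43.7% of the UMIs of the 4 libraries. Molecules within a cell are not independent, so the intervals on this gene are narrower than cell-to-cell variation would give.

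*Ccl19* (chr4:42754525-42756577, minus strand), which draws CCR7-bearing T cells and dendritic cells (DCs), ordered the 4 libraries in mesenchymal cells as *Cxcl13* did. Its mesenchymal level was 18.7 CPM (17.8 to 19.7) in Uninjured, 49.6 (47.0 to 52.3) at 1 dpi, 65.4 (62.9 to 67.9) at 3 dpi and 10.6 (9.77 to 11.5) at 7 dpi. The ratio to Uninjured was 2.65 (2.46 to 2.86), 3.49 (3.27 to 3.73) and 0.568 (0.514 to 0.626). Myogenic cells, the satellite cells and myoblasts of muscle, held a higher level than mesenchymal cells in every library, with overlapping intervals at 3 dpi. They held 83.3 CPM (63.7 to 107.0) in Uninjured, 361.3 (292.7 to 441.2) at 1 dpi, 80.8 (61.2 to 104.7) at 3 dpi and 33.9 (19.8 to 54.3) at 7 dpi, in 111, 59, 108 and 105 cells. Their peak stood at 1 dpi, 4.34 times Uninjured (3.12 to 6.08), and the intervals of the Uninjured and 3 dpi libraries overlapped. After thinning, 10.8, 32.2, 12.0 and 5.77% of myogenic cells had a *Ccl19* UMI, while T cells had 0% in every library. Blood endothelial cells held 0 *Ccl19* UMIs in all 4 libraries, which allows up to 10.1 CPM at 3 dpi and up to 25.1 CPM in Uninjured. A related CCR7 ligand, *Ccl21a*, was read in the blood endothelial class at 919.2, 1819 and 1378 CPM at 1, 3 and 7 dpi. The classes held no separate list for lymphatic endothelium, and whether such cells were part of this class was not tested.

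*Cxcl9*, a CXCR3 ligand, was found mostly in mesenchymal cells, at 38.8 CPM (37.4 to 40.2) in Uninjured, 55.1 (52.4 to 57.9) at 1 dpi, 55.8 (53.5 to 58.2) at 3 dpi and 35.7 (34.1 to 37.3) at 7 dpi. The 1 and 3 dpi libraries stood above the remaining ones and their intervals overlapped, with ratios to Uninjured of 1.42 (1.33 to 1.51) and 1.44 (1.36 to 1.52). The thinned share of cells was 2.98, 3.58, 3.49 and 2.91%, against at most 0.518% of T cells. The few blood endothelial cells held 89.7, 16.9 and 70.7 CPM at 1, 3 and 7 dpi, with intervals that overlapped the mesenchymal ones at 1 and 7 dpi, and 1 cell took the 1 dpi level from 35.7 to 89.7. In monocytes and macrophages the Uninjured library held 0 *Cxcl9* UMIs in 221 cells, which allows up to 1.82 CPM. The injured libraries held 9.28 (7.66 to 11.1), 7.43 (4.90 to 10.8) and 16.3 (9.65 to 25.7) CPM, from 115, 27 and 18 UMIs. These point values were 5.09, 4.08 and 8.94 times that limit. Without the single cell richest in *Cxcl9*, the 3 dpi level was 1.93 CPM, close to the limit, and the 7 dpi level 5.45 CPM. cDC1, the DC subset that cross-presents antigen to CD8 T cells, held 84.0 CPM (69.6 to 100.6) in 188 cells at 3 dpi, and 64.5 CPM without its richest cell.

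**Figure D2:**
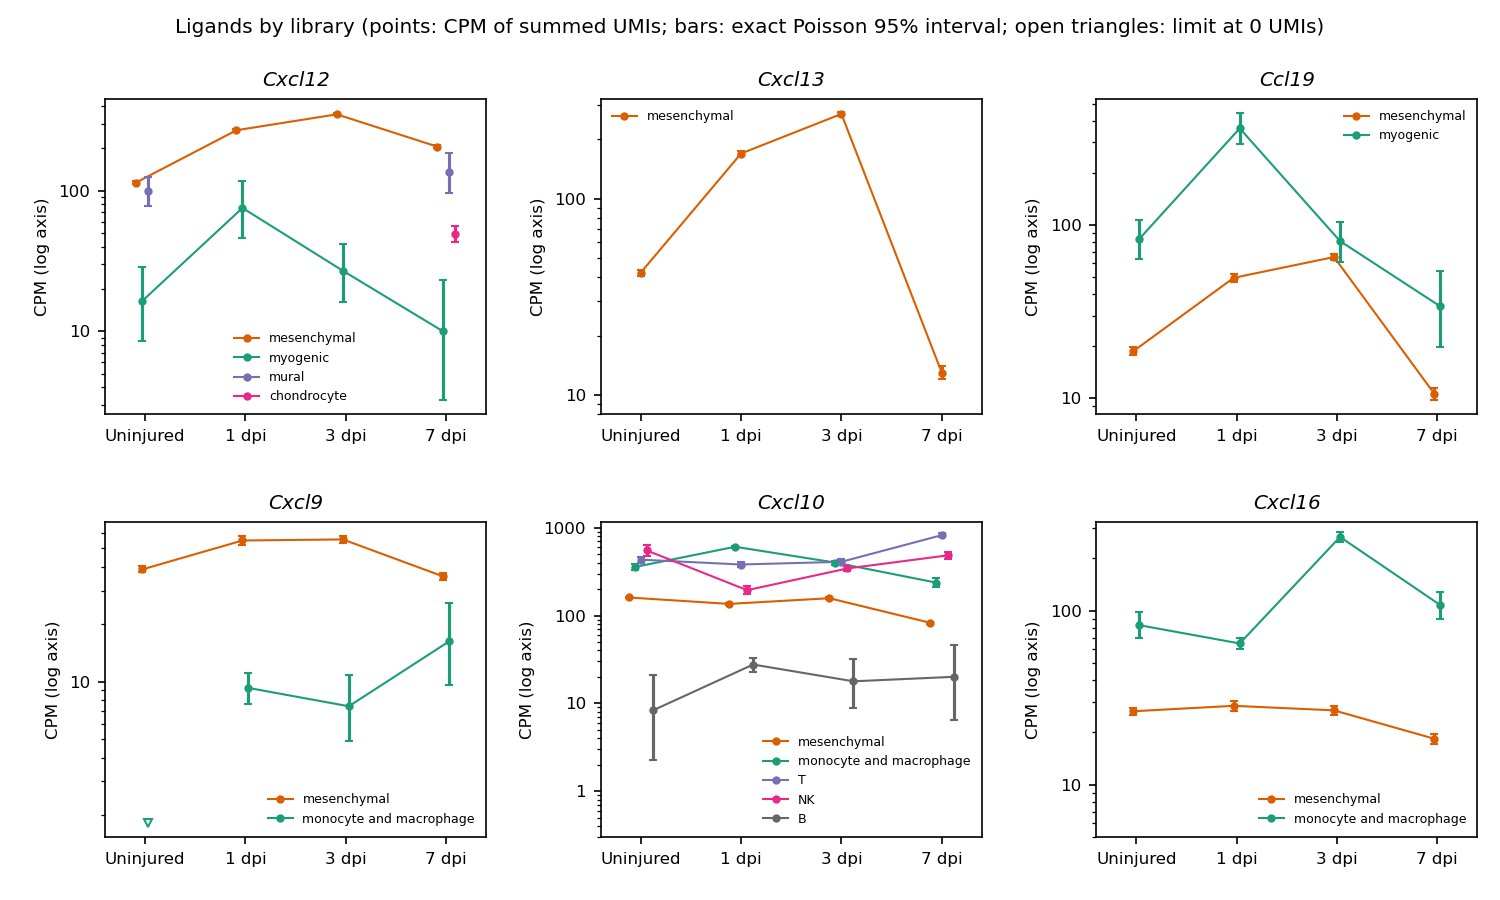
CPM (log axis) of 6 ligands by library, coloured by class, with exact Poisson 95% intervals. Open triangles are the limit where a class held 0 UMIs, and lines join libraries only as a guide. Cxcl12, Cxcl13 and Ccl19 peak at 3 dpi in mesenchymal cells, and Cxcl16 at 3 dpi in monocytes and macrophages.

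*Cxcl10*, the neighbour of *Cxcl9* and the second CXCR3 ligand, was more widely distributed. In monocytes and macrophages it was measured at 357.1 CPM (328.8 to 387.2) in Uninjured, 608.0 (594.3 to 621.8) at 1 dpi, 401.2 (380.8 to 422.3) at 3 dpi and 237.9 (210.0 to 268.5) at 7 dpi. The 1 dpi library was the highest, 1.70 times Uninjured (1.57 to 1.86), and 7 dpi the lowest, 1.5 times below it (1.30 to 1.74). The 3 dpi ratio of 1.12 (1.02 to 1.24) changed sign under other scalings, to log2 values of -0.07 with cells thinned to 1000 UMIs and -0.06 with the median of all genes set to 0. Mesenchymal cells held 160.7 (157.8 to 163.6), 135.8 (131.5 to 140.2), 157.6 (153.7 to 161.6) and 83.0 (80.6 to 85.5) CPM, so the 7 dpi library was the low one, at 1.94 times below Uninjured (1.87 to 2). Their thinned share of cells with a UMI moved far less, at 7.68, 7.28, 8.16 and 7.43%.

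T cells carried *Cxcl10* at 433.3 CPM (398.9 to 470.0), 381.7 (359.9 to 404.4), 409.6 (385.0 to 435.3) and 824.2 (777.4 to 873.1), with the 7 dpi library 1.90 times Uninjured (1.72 to 2.11). This stands on 14.2 to 21.8% of thinned T cells. The monocyte and macrophage marker sum in T cells was 11.9, 48.3, 41.0 and 26.3 CPM, and its part in the result was not tested. NK cells held 551.8, 194.7, 344.3 and 485.0 CPM, but 1 NK cell held 124 of the 224 UMIs of the Uninjured library, and without it that level was 254.1 CPM. In B cells the level was 8.30 to 27.7 CPM and the thinned share 1.08 to 1.96%, below T and NK cells in each library. cDC2 held 607.8 CPM (547.7 to 672.7) in Uninjured and 515.6 (475.5 to 558.2) at 3 dpi. In myogenic cells at 1 dpi, 654.9 CPM fell to 147.8 without 1 cell that held 137 UMIs.

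*Cxcl16* (chr11:70453983-70459984, minus strand), a ligand of CXCR6 on effector T and NKT cells, peaked in monocytes and macrophages at 3 dpi. It was measured there at 82.6 CPM (69.3 to 97.7) in Uninjured, 64.9 (60.5 to 69.5) at 1 dpi, 265.7 (249.2 to 283.0) at 3 dpi and 107.7 (89.2 to 128.8) at 7 dpi. The 3 dpi level was 3.22 times Uninjured (2.69 to 3.88) and 4.10 times 1 dpi (3.73 to 4.50). The thinned share of cells was 8.60, 6.34, 20.8 and 7.81%, against at most 0.221% of T cells. Mature DCs, the CCR7-bearing migratory state, held 1043 CPM (944 to 1150) in 77 cells at 3 dpi, and 88.3% of them had a *Cxcl16* UMI. Mesenchymal cells held 26.4, 28.4 and 26.7 CPM with overlapping intervals in the first 3 libraries and 18.4 (17.2 to 19.5) at 7 dpi, 1.44 times below Uninjured (1.33 to 1.56).

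*Ccl20* (chr1:83116766-83119167, plus strand), the CCR6 ligand, was scarce before 3 dpi. All kept cells together held 6, 2, 312 and 107 of its UMIs, or 0.0705, 0.0318, 4.91 and 1.33 CPM. Mesenchymal cells held 96.2% of the 3 dpi UMIs, at 7.62 CPM (6.79 to 8.54) against 0.0793 (0.0291 to 0.173) in Uninjured. Most of its UMIs lay outside the kept cells. Counted over all cells, the libraries held 89, 10, 1714 and 368 UMIs. Cells above the upper 2 SD limit of depth, which were 1.62, 2.13, 2.70 and 3.23% of cells, held 91.0, 0, 53.5 and 53.3% of them. Those deep cells had median UMI counts of 50538, 38200, 43794 and 26756. What they are was not tested, and 3 dpi held the most UMIs and 1 dpi the fewest both in all cells and in kept cells.

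**Figure D3:**
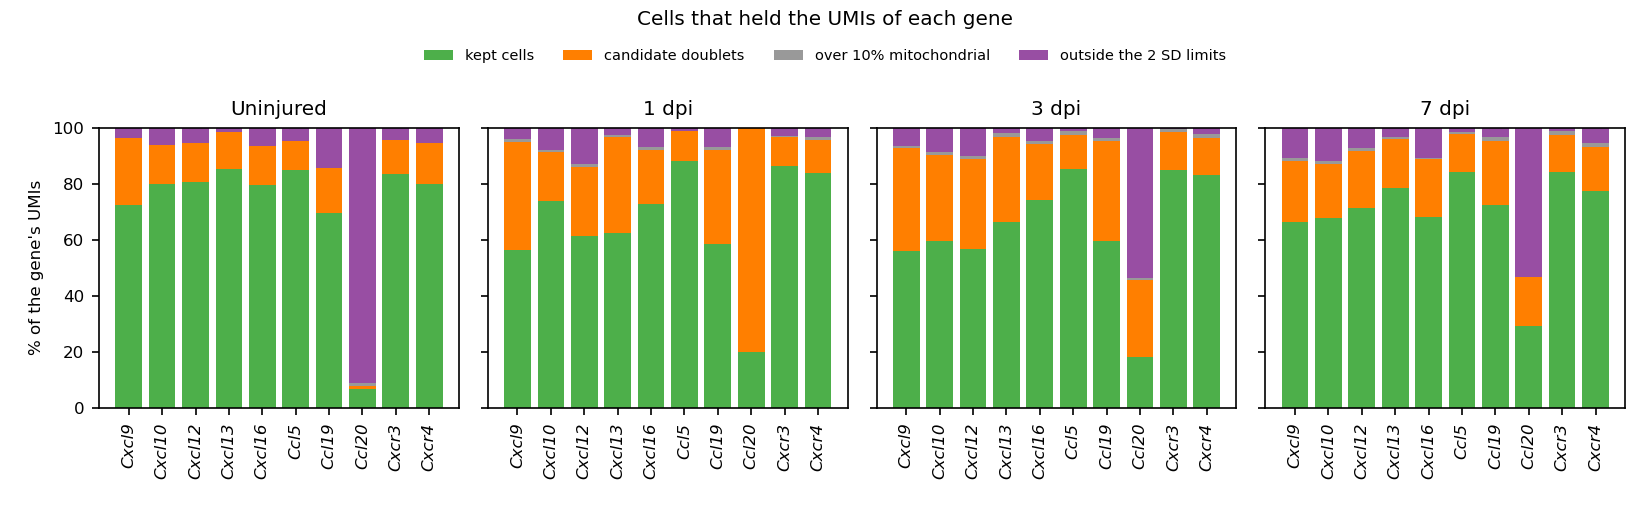
Share of each gene's UMIs in each library (bars sum to 100%) held by kept cells, candidate doublets, cells over 10% mitochondrial UMIs and cells outside the 2 SD depth limits. Ccl20 stands apart, with 6.74 to 29.1% of its UMIs in kept cells.

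Within the mesenchymal class the ligands divided between stromal subsets, taken as cells with UMIs of at least 2 of 4 subset genes (the plot of 4 ligands by mesenchymal subset). *Cxcl12* was highest in the small *C7* *Gdf10* subset (68 to 210 cells), at 234.6, 696.4, 840.4 and 586.3 CPM. *Col15a1* interstitial cells, fibroblasts between myofibres, held 165.8 (161.5 to 170.3), 288.4 (279.2 to 297.9), 307.7 (296.7 to 318.9) and 345.7 (329.7 to 362.3). *Pi16* adventitial cells, fibroblasts of vessel sheaths, held 44.9 (42.4 to 47.4), 123.3 (115.0 to 132.0), 120.9 (111.9 to 130.5) and 131.9 (120.4 to 144.1). In both of these subsets the 7 dpi level was not below 3 dpi, whereas in the whole class it was. *Lrrc15* progenitors, 3783 of the mesenchymal cells at 7 dpi and 76 at 3 dpi, held 158.6 CPM (153.4 to 163.9) at 7 dpi.

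*Cxcl9* followed the interstitial subset, at 67.7, 72.3, 78.1 and 87.6 CPM against 13.9, 33, 27.9 and 40.2 in *Pi16* cells. Its 7 dpi level was the highest of the libraries in both of these subsets, whereas in the whole class it was the lowest. In the *C7* *Gdf10* subset at 1 dpi 62 of 64 *Cxcl9* UMIs came from 1 cell, and the level fell from 129.6 to 4.23 CPM without it. *Cxcl13* had the reverse order in Uninjured tissue and at 1 dpi, with 70.9 and 267.0 CPM in *Pi16* cells against 15.8 and 75.9 in interstitial cells. At 3 dpi the injury subset marked by *Cxcl5* (889 cells) held 399.6 CPM (386.7 to 412.8) of *Cxcl13*, and at 7 dpi all of these subsets were at 2.55 to 38.4 CPM. *Ccl19* was highest in the *C7* *Gdf10* subset, at 134.5, 139.7, 172.9 and 77.4 CPM, and lowest in *Lrrc15* progenitors, at 2.76 and 3.08 CPM at 3 and 7 dpi. *Cxcl16* was 37.8 CPM (35.7 to 40.0) in interstitial and 9.65 (8.54 to 10.9) in *Pi16* cells of the Uninjured library. The *Cxcl5* subset also held 15.7 CPM (13.2 to 18.5) of *Ccl20* at 3 dpi, from 142 UMIs.

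**Figure D4:**
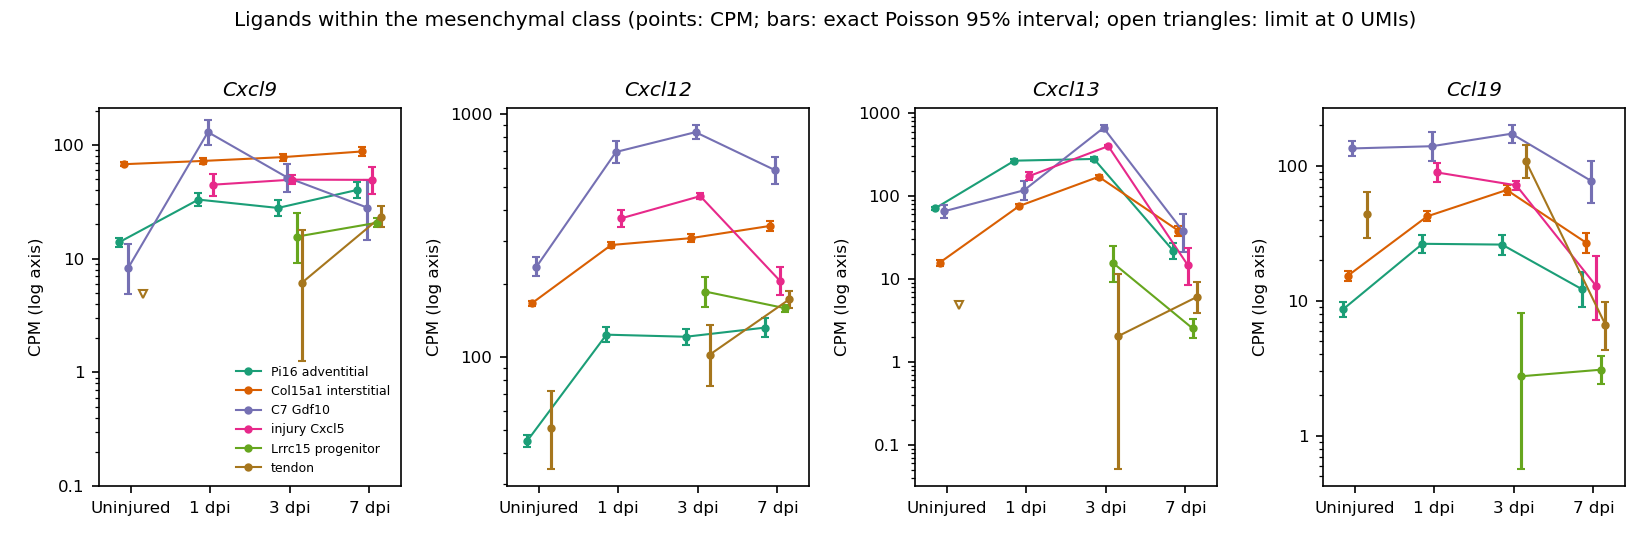
CPM (log axis) of 4 ligands by library in 6 mesenchymal subsets, with exact Poisson 95% intervals and open triangles for the limit at 0 UMIs; subsets under 50 cells are left out. Cxcl9 is highest in Col15a1 interstitial cells except at 1 dpi, where 1 cell set the C7 Gdf10 value.

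The ligands were also counted cell by cell, in mesenchymal cells thinned to 1000 UMIs. *Cxcl10* was detected in 27.2% (21.7 to 33.2) of Uninjured cells with a *Cxcl9* UMI and in 7.08% (6.53 to 7.67) of those without. The shares were 23.1 and 6.69% at 1 dpi and 25.8 and 7.52% at 3 dpi. At 7 dpi they were 9.45% (6.42 to 13.3) and 7.37% (6.87 to 7.90), with overlapping intervals. *Ccl19* was detected in 6.56, 16.4, 15.2 and 6.10% of cells with *Cxcl13* and in 1.30, 3.76, 4.67 and 0.860% of cells without. Both pairs take in all mesenchymal subsets, which differ in the level of each gene.

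*Ccl5* (chr11:83525778-83530518, minus strand), a product of NK cells and effector T cells, had opposite courses in the NK and T classes, each taken as a whole. NK cells were measured at 18439 CPM (18024 to 18862) in Uninjured, 5131 (5031 to 5233) at 1 dpi, 4681 (4595 to 4768) at 3 dpi and 8976 (8792 to 9163) at 7 dpi. All injured libraries were below Uninjured, by 3.59 (3.49 to 3.70), 3.94 (3.83 to 4.06) and 2.05 (1.99 to 2.12) times, while 100, 98.7, 94.0 and 93.1% of NK cells had a UMI. The NK marker sum itself was 13481 CPM in Uninjured against 6877, 7389 and 8206, and its part in the result was not tested.

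T cells held 1707 (1638 to 1779), 2148 (2096 to 2201), 4462 (4380 to 4545) and 2878 (2790 to 2968) CPM of *Ccl5*. All injured libraries were above Uninjured, 3 dpi the most, with ratios of 1.26 (1.2 to 1.32), 2.61 (2.50 to 2.73) and 1.69 (1.60 to 1.78). With the median of all genes set to 0, the 1 dpi log2 ratio went from 0.33 to -0.14, so its direction depends on the scaling. The thinned share of T cells was 14.9, 34.8, 58.1 and 26.3%. CD8 T cells held 3170, 3832, 6773 and 4085 CPM and CD4 T cells 942.3, 455.3, 1523 and 362.9. The NK marker sum in T cells was 353.9, 542.7, 518.1 and 708.2 CPM, and its part in the result was not tested. Mature DCs held 6185 CPM (5940 to 6439) at 3 dpi, higher than T and NK cells of that library.

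*Ccl5* in mesenchymal cells was higher in each later library, at 2.05 CPM (1.74 to 2.40) in Uninjured, 6.86 (5.93 to 7.90) at 1 dpi, 23.6 (22.1 to 25.1) at 3 dpi and 63.8 (61.7 to 66) at 7 dpi. The 7 dpi level was 31.1 times Uninjured (26.5 to 36.8). The thinned share of cells was 0.172, 0.947, 1.99 and 7.50%. Sums of the 8 NK markers in the same cells were 0.952, 4.39, 8.11 and 30.9 CPM, and those of the 8 T markers 1.76, 4.74, 6.81 and 34.9. Their part in the result was not tested. Cells with 3 or more markers of a lymphoid list had been removed as candidate doublets. At 7 dpi chondrocytes had 69.5 CPM of *Ccl5* with NK and T sums of 47.0 and 42.3. Monocytes and macrophages had 14.5 CPM (8.27 to 23.5) and a thinned share of 0.391%, with NK and T sums of 5.43 and 9.95. The part of these sums was not tested. B cells held 4.15 CPM in Uninjured and 160.4 at 7 dpi, but without 1 cell the 7 dpi level was 24.4.

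*Cxcr3* (chrX:101731535-101734269, minus strand), the receptor of CXCL9 and CXCL10, was read in T and NK cells. T cells held 40.8 CPM (30.7 to 53.1) in Uninjured, 87.0 (76.8 to 98.2) at 1 dpi, 94.7 (83.1 to 107.5) at 3 dpi and 81.9 (67.6 to 98.3) at 7 dpi. The injured libraries stood above Uninjured with intervals that overlapped among themselves, and the ratios were 2.13 (1.59 to 2.91), 2.32 (1.73 to 3.17) and 2.01 (1.44 to 2.82). The thinned share of T cells was 4, 8.80, 10.4 and 8.29%, against 0 to 0.142% of mesenchymal cells. NK cells held 41.9 (24.4 to 67.0), 66.5 (55.5 to 78.9), 58.5 (49.3 to 68.9) and 94.6 (76.6 to 115.7) CPM, where only the 7 dpi ratio of 2.26 (1.34 to 4.04) had an interval above 1. CD4 and CD8 T cells had overlapping intervals in each library. At 3 dpi cDC1 held 48.4 CPM (37.6 to 61.4), close to NK cells of that library.

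*Cxcr4* (chr1:128588199-128592293, minus strand), the CXCL12 receptor, was highest in B cells, at 1056 CPM (966.4 to 1152) in Uninjured, 1164 (1131 to 1197) at 1 dpi, 968.8 (892.7 to 1050) at 3 dpi and 581.5 (490.7 to 684.2) at 7 dpi. The first 3 libraries differed little and 7 dpi was 1.82 times below Uninjured (1.51 to 2.20). The 1 dpi ratio of 1.10 (1.01 to 1.21) became a log2 value of -0.26 with the median of all genes set to 0. B progenitors, marked by surrogate light chain and recombinase genes, held 380.2 CPM (326.4 to 440.4) at 1 dpi in 64 cells, against 1265 (1229 to 1302) in other B cells.

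T cells held 302.7 (274.1 to 333.6), 650.0 (621.5 to 679.5), 550.0 (521.5 to 579.7) and 201.4 (178.6 to 226.3) CPM of *Cxcr4*, and NK cells 108.4 (78.8 to 145.5), 448.3 (419.1 to 478.9), 311.0 (289.2 to 334.0) and 147.4 (124.6 to 173.1). Both classes were highest at 1 dpi, by 2.15 (1.93 to 2.40) and 4.14 (3.06 to 5.73) times Uninjured. In thinned cells the shares with a UMI were 26.3, 43.0, 36.7 and 18.5% of T cells and 7.55, 31.7, 24.6 and 14% of NK cells. Monocytes and macrophages were below Uninjured in every injured library, with 293.4, 219.7, 171.0 and 110.4 CPM, and 7 dpi was 2.66 times below Uninjured (2.18 to 3.27). Their direction differed from that of T and NK cells at 1 and 3 dpi, while T cells too were below Uninjured at 7 dpi. Neutrophils, whose CXCR4 directs their return to marrow, held 180.9, 182.2, 156.4 and 301.1 CPM. The 7 dpi neutrophil ratio of 1.66 (1.04 to 2.65) became a log2 value of -0.07 with cells thinned to 1000 UMIs. Mesenchymal cells held 1.55, 7.82, 5.64 and 6.19 CPM, with the thinned share at 0.270 to 1.39%. The B marker sum in the same cells was 0.463, 12.4, 4.09 and 6.77 CPM. It stands beside the NK and T marker sums given above for *Ccl5*, and the part of these sums in the result was not tested.

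**Figure D5:**
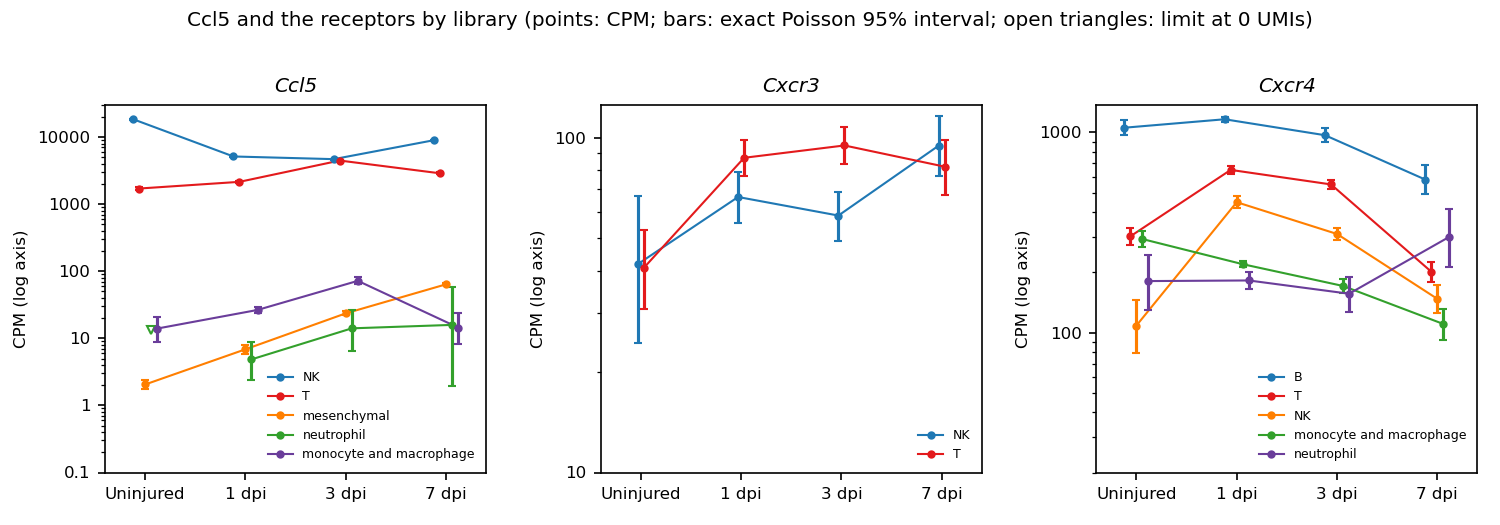
CPM (log axis) of Ccl5, Cxcr3 and Cxcr4 by library and class, with exact Poisson 95% intervals and an open triangle for the limit at 0 UMIs. Ccl5 in NK cells is lowest at 3 dpi, at 4681 CPM, and Cxcr4 is highest in B cells of each library.

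The members were next counted against all genes of the same cells, with a gene called where it changed at least 2-fold among those with at least 25 UMIs over both libraries. In mesenchymal cells 5 of 8 members tested were higher at 1 dpi (*Cxcl12*, *Cxcl13*, *Ccl5*, *Ccl19* and *Cxcr4*) and none lower, where 9.74% of all genes were higher and 4.72% lower. At 3 dpi it was 6 of 9, with *Ccl20* added, against 13.6% higher and 7.61% lower. At 7 dpi *Ccl5*, *Ccl20*, *Cxcr3* and *Cxcr4* were higher and *Cxcl13* lower of 10, against 18.5 and 11.1%. *Ccl20* at 3 and 7 dpi and *Cxcr3* at 7 dpi reached 25 UMIs only through the injured library. Their Uninjured levels were 0.0793 and 0.0132 CPM. These genes could only be called higher, so their calls add no support to the counts. *Ccl5*, *Cxcr3* and *Cxcr4* are lymphoid genes, and in the same mesenchymal cells the T marker sum was 1.76 CPM in Uninjured and 34.9 at 7 dpi and the NK sum 0.952 and 30.9, whose part in the result was not tested. The B marker sum there was 0.463, 12.4, 4.09 and 6.77 CPM in Uninjured and at 1, 3 and 7 dpi, and its part was not tested either. The median log2 ratio of the members tested was 1.32, 1.81 and 0.36, and that of all genes 0.17, 0.12 and 0.09.

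In monocytes and macrophages *Cxcl9* and *Cxcl12* were higher of 6 tested at 1 dpi (17.5% of genes higher and 4.47% lower), joined by *Cxcl16* and *Ccl5* at 3 dpi (13.3 and 2.43%). Without its richest cell the 3 dpi level of *Cxcl9*, 1.93 CPM against a limit of 1.82 in Uninjured, was not past 2-fold. The 38 and 26 *Cxcl12* UMIs stood against 1 in Uninjured, with ratio intervals of 0.853 to 204.5 and 1.94 to 483.2. *Cxcl9* and *Cxcl12* passed the UMI limit only through the injured library and could only be called higher. Their calls add no support to the counts. The mesenchymal marker sum in the same cells was 58.3, 65.1 and 110.7 CPM in Uninjured and at 1 and 3 dpi, and its part in the result was not tested. At 7 dpi none of 4 was higher and *Cxcr4* was lower (4.20 and 2.37%). In NK cells *Cxcr4* was higher and *Cxcl10* and *Ccl5* lower of 4 at 1 dpi (17.8 and 3.35%), *Cxcr4* higher and *Ccl5* lower at 3 dpi (19.4 and 3.35%), and *Cxcr3* higher and *Ccl5* lower at 7 dpi (5.13 and 2.11%). Without the 1 Uninjured cell that held 124 *Cxcl10* UMIs, the NK levels were 254.1 and 194.7 CPM and the 1 dpi call of *Cxcl10* was lost. In T cells *Cxcr3* and *Cxcr4* were higher of 4 at 1 dpi (22.7 and 1.54%), *Cxcl12*, *Ccl5* and *Cxcr3* of 5 at 3 dpi (23.6 and 1.99%), and *Cxcr3* of 4 at 7 dpi (8.11 and 1.49%). The *Cxcl12* call rested on 28 UMIs against 1, in T cells whose mesenchymal marker sum was 98.7, 85.3, 162.6 and 215.7 CPM, and its part in the result was not tested. This gene too passed the UMI limit only through the injured library and could only be called higher.

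The T cell background was lopsided, with 93.6, 92.2 and 84.5% of called genes higher and a median log2 ratio of 0.47, 0.48 and 0.19. Taken relative to that median, 54.3, 58.3 and 65.5% of called genes were higher, and the members past 2-fold were none, *Cxcl12* and none. The 2-fold counts of *Cxcr3*, *Cxcr4* and *Ccl5* in T cells therefore depend on the scale. In NK cells the higher share went from 84.2 to 60.6% at 1 dpi, from 85.2 to 62.7% at 3 dpi and from 70.8 to 68.7% at 7 dpi, with the same members called when all cells are counted. In monocytes and macrophages it went from 79.7, 84.5 and 63.9% to 62.8, 65.3 and 54.4%, with *Cxcr4* added as lower at 3 dpi. In mesenchymal cells it went from 67.3, 64.1 and 62.5% to 53.1, 56.0 and 58.4%, with *Cxcl10* added as lower at 7 dpi.

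Other genes of the chemokine and interferon pathways were read from chosen lists. Of 7 type I interferon response genes tested in monocytes and macrophages, all 7 were at least 2-fold higher at 1 dpi, where 17.5% of all genes were, with a median log2 ratio of 3.21. *Rsad2*, an antiviral enzyme, went from 58.3 CPM to 538.8, 279.7 and 82.3, and *Irf7*, a transcription factor of the interferon loop, from 70.5 to 759.8, 260.5 and 142.9. In mesenchymal cells 6 of the 7 were higher at 1 dpi (median 2.56), 5 at 3 dpi and 2 at 7 dpi, against 9.74, 13.6 and 18.5% of all genes, and *Ifit2* was lower at 7 dpi. Of genes induced by interferon gamma, *Gbp2*, a guanylate-binding protein, was 40.3, 81.0, 32.6 and 12.5 CPM in mesenchymal cells, and *Cd274*, the checkpoint ligand PD-L1, 5.30, 11.3, 2.97 and 1.22. Other genes of the interferon gamma list went the other way in mesenchymal cells at 3 dpi. *Ifng*, *Irf8* and *Gbp5* were at least 2-fold higher and none of the list was 2-fold lower, against 13.6 and 7.61% of all genes. In the same cells the NK and T marker sums were 0.952 and 1.76 CPM in Uninjured and 8.11 and 6.81 at 3 dpi. The part of these sums in the result was not tested. *Cxcl10* itself was 1.18 times lower in mesenchymal cells at 1 dpi (1.14 to 1.23). *Ifng*, which encodes interferon gamma, was read in NK cells at 992.7, 557.6, 708.9 and 592.6 CPM and in T cells at 178.1, 303.0, 680.7 and 239.1. In NK cells at 1 dpi none of the type I genes was higher and 3 were lower (*Ifit1*, *Ifit3* and *Isg15*), against 17.8 and 3.35% of all genes. The Uninjured NK class held 106 cells, and levels without the richest cell were not computed for these genes.

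Among the receptors of these ligands, *Cxcr6*, the CXCL16 receptor, was 69.0, 131.0, 238.7 and 176.5 CPM in T cells, highest in the same library as *Cxcl16* in monocytes and macrophages. *Ccr7* was 497.1, 308.7, 86.4 and 170.1 CPM in T cells, and *Cxcr5*, the CXCL13 receptor, was 203.4, 194.7, 145.8 and 296.7 in B cells. *Ackr3*, a scavenger receptor of CXCL12, was 687.3, 567.0, 265.6 and 73.3 CPM in mesenchymal cells, and at 7 dpi all 4 atypical receptors (*Ackr1*, *Ackr2*, *Ackr3* and *Ackr4*) were at least 2-fold lower there. Of the other ligands, *Cxcl14* was 2494, 2406, 2024 and 509.5 CPM in mesenchymal cells. *Cxcl11* and *Mx1* were not used here.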

How the data were processed

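Droplet scRNA-seq counts of 4 libraries were used. For each library the authors deposited a matrix of whole-number, unscaled UMI counts (genes by cells). The submitters' processing notes name Cell Ranger 5.0.0 and Seurat 3.1.1 and the mm10 build. Reads were down-sampled according to the methods, but the sources do not say whether these counts were made before or after. Gene IDs were matched to GENCODE M21 (32235 of 32285, 99.8%), and promoter sequence came from RefSeq on GRCm38.p6.

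Cells were kept within 2 SD of their library's mean log10 UMIs and log10 genes and at most 10% mitochondrial UMIs. A cell belonged to 1 of 18 classes with at least 3 of its 8 markers and a lead of at least 2 markers over any other class. Cells with 3 or more markers of classes of 2 lineages were removed as candidate doublets, and no doublet caller was run. Subsets needed 2 of their markers, except CD4 and CD8 T cells, which were gated on a UMI of one gene and none of the other. The members, lists and rules were chosen with earlier results of these data known.

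CPM was computed from summed UMIs, with exact Poisson intervals at 95%, Clopper-Pearson intervals for shares and exact conditional binomial intervals for ratios, which cover counting error only. A count of 0 was given a floor of 3 UMIs over the class. With 1 library per group no test and no p-value was made. The named genes were the members, 4 pathway lists, and for each member the 3 genes with the highest Pearson r in log2(CPM + 10) over classes of at least 50 cells, among genes with at least 20 CPM in a class and 200 UMIs in all. Cells were also thinned to 1000 UMIs, the medians of all genes were aligned, and doublets, filters and marker numbers were varied. Levels without the richest cell and counts of genes relative to the median were added after the data were seen. Some results of the lists and of the similar genes are not reported here. The ratio intervals and the 2-fold call were tested on simulated Poisson sums with known changes, and thinning was checked on real cells. The simulation drew molecules independently, so it does not cover variation between cells. Class gates, subsets and doublet removal were not simulated. The scripts ran on Python 3.11.15 with pandas 2.3.3, scipy 1.17.1, matplotlib 3.10.9 and numpy 2.4.6.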

Additional observations from a re-analysis of the deposited data

Results flagged for a closer look

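The 2 ligands and 1 receptor below differed in sign between cell classes of the same pair of libraries, beyond counting error, and these differences between classes were not tested. *Ccl5* in NK cells had log2 ratios to Uninjured of -1.85, -1.98 and -1.04 at 1, 3 and 7 dpi. In mesenchymal cells the same ratios were 1.74, 3.52 and 4.96, and in T cells and in monocytes and macrophages at 3 dpi they were 1.39 and 2.36. In B cells they were 2.29, 3.55 and 5.27, from 83, 30 and 40 UMIs against 2 in Uninjured, and without 1 cell the 7 dpi level in B cells was 24.4 CPM in place of 160.4. In the mesenchymal cells the T marker sum was 1.76, 4.74, 6.81 and 34.9 CPM in Uninjured and at 1, 3 and 7 dpi and the NK sum 0.952, 4.39, 8.11 and 30.9, and their part in the result was not tested.

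*Cxcl10* at 1 dpi had a log2 ratio of -1.50 in NK cells and 1.74 in B cells. The NK value rests on 1 Uninjured cell with 124 of 224 UMIs, without which the Uninjured level was 254.1 CPM in place of 551.8, against 194.7 at 1 dpi. The B cell value rests on 113 UMIs against 4, with an interval of 0.34 to 3.64. *Cxcr4* at 7 dpi had a log2 ratio of 2.0 in mesenchymal cells and -1.41 in monocytes and macrophages. The mesenchymal value stands beside the same T and NK marker sums. The B marker sum in those cells was 0.463 CPM in Uninjured and 6.77 at 7 dpi. The part of these sums in the *Cxcr4* value was not tested.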

How the results depend on the processing

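Log2 ratios to Uninjured for 14 chosen combinations of gene, class and time were each recomputed under up to 7 alternatives. Of these values 72 stayed within the counting interval of the reported ratio, 23 moved outside it and 1 reversed. Only a ratio whose interval excluded 0 could be called reversed. Within its interval, *Ccl20* in all kept cells at 1 dpi went from -1.15 to 0.87 with candidate doublets kept. *Cxcr4* in neutrophils at 1 dpi went from 0.01 to -0.28 with linear 2 SD limits, -0.31 without a filter on cells and -0.44 with medians aligned. With each cell thinned to 1000 UMIs the ratio at 1 dpi became 0.54 for *Cxcl10* in monocytes and macrophages (0.77 as reported), -0.41 for *Cxcl10*, 1.12 for *Cxcl12*, 1.70 for *Cxcl13* and 1.62 for *Ccl19* in mesenchymal cells, and 0.05 for *Ccl5* in T cells, and at 7 dpi it became 0.78 for mesenchymal *Cxcl12*. Thinning left no direction for *Cxcl9* in monocytes and macrophages (10 UMIs against 0) or for *Ccl20*. With the median of all genes at 0, these became 0.55 for monocyte and macrophage *Cxcl10*, -0.41, 1.06, 1.84 and 1.23 for mesenchymal *Cxcl10*, *Cxcl12*, *Cxcl13* and *Ccl19*, 0.76 for *Cxcl12* at 7 dpi, -2.11 for *Ccl5* in NK cells, 0.62 and 0.63 for *Cxcr3* and *Cxcr4* in T cells, and -0.14, a reversal from 0.33, for *Ccl5* in T cells. With candidate doublets kept, mesenchymal *Cxcl10*, *Cxcl13* and *Ccl19* were -0.06, 2.15 and 1.55. Without a filter on cells mesenchymal *Cxcl10*, *Cxcl12* at 7 dpi and *Ccl19* were -0.18, 0.77 and 1.29, and with linear 2 SD limits *Cxcl12* at 7 dpi was 0.94. The cause of these moves was not tested.

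Of the other ratios 568 values were unchanged in this sense, 78 moved and 5 reversed: *Cxcl10* in monocytes and macrophages at 3 dpi (-0.07 thinned, -0.06 with medians aligned), *Cxcl16* there at 7 dpi (-0.02 thinned), *Cxcr4* in neutrophils at 7 dpi (-0.07 thinned) and in B cells at 1 dpi (-0.26 with medians aligned). Relative to the median, genes past 2-fold went from 1989 higher and 135 lower to 759 and 640 in T cells at 1 dpi, from 2036 and 172 to 903 and 646 at 3 dpi, and from 593 and 109 to 383 and 202 at 7 dpi. In NK cells they went from 1312 and 247 to 847 and 551 at 1 dpi and from 1543 and 267 to 1016 and 605 at 3 dpi, and in monocytes and macrophages from 1824 and 465 to 1319 and 781 at 1 dpi and from 1193 and 218 to 778 and 414 at 3 dpi. No paired analysis was possible because each group has 1 library. Depth limits the rarer members, *Ccl20* and *Cxcr3*, and any class under 50 cells.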

Other observations

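For each member the genes with the most similar levels over 45 combinations of class and library were listed, among 11795 genes, as a description. The points share libraries, and combinations of the same class are not independent. *Cxcl12* was nearest to *Tshz2* (Pearson r = 0.947), *Meox2* (0.935) and *Osmr* (0.929), and *Ccl19* to *Kcnt2* (0.951) and *Pde10a* (0.919). *Cxcl13* was nearest to *Nova1* (0.919), *Ms4a4d* (0.917) and *Lvrn* (0.913), and *Cxcl9* to *Hsd3b7* (0.827), *Anpep* (0.826) and *Ece1* (0.789). *Cxcl10* was nearest to *Ifit1* (0.791), *S100a4* (0.710) and *Ifit3* (0.702), of which *Ifit1* and *Ifit3* belong to the type I interferon list. *Cxcl16* was nearest to *Nostrin* (0.928), *Tmem106a* (0.862) and *Batf3* (0.823), and *Ccl5* to *Ms4a4b* (0.905), *Tnfrsf18* (0.899) and *Gm19585* (0.898). *Cxcr3* was nearest to *Cd28* (0.912), which is also a marker of the T cell list, *Skap1* (0.908) and *Gbp8* (0.899), and *Cxcr4* to *Ptk2b* (0.909), *Cd37* (0.902) and *Dock2* (0.894). *Ccl20* was below the limit on level or UMIs.

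*Cxcl12* and *Cxcl13* were detected in the same thinned mesenchymal cells to a degree that differed by library. In Uninjured tissue 1.54% (0.823 to 2.62) of cells with a *Cxcl12* UMI had *Cxcl13*, against 2.32% (1.99 to 2.70) of those without. At 1 dpi the shares were 6.25% (4.482 to 8.445) and 4.36% (3.63 to 5.19). The intervals overlapped in each of these libraries. At 3 dpi the shares were 11.6% (9.86 to 13.5) and 6.34% (5.62 to 7.13), and at 7 dpi 2.62% (1.90 to 3.52) and 0.438% (0.312 to 0.598). This pair too takes in all mesenchymal subsets, which differ in the level of each gene.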
